A study of Danio rerio with 2 samples.

Results

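The genes described here encode the cytosolic factors of translation initiation and elongation, with the release factor, the cytoplasmic poly(A)-binding proteins and the eIF5-mimic (bzw) proteins. They were chosen by symbol, from probe sets that the platform annotation gives to 1 gene, wherever that symbol begins with eif and a digit from 1 to 6, eef1, eef2, etf1, pabpc or bzw. This gave 72 genes of 8793 named genes on the array, on 93 of 15502 probe sets. Each gene was read through its probe set of highest mean log2 signal. Of the 72 genes, 65 reached a signal of 33.3, the median of all signals, on at least 1 array and are called measured. Of these, 61 reached it on both arrays.

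The series held 2 arrays of total RNA from zebrafish embryos at 24 hours after fertilization. Embryos of the first group had received about 5 ng of a morpholino against DrC1q-like, and embryos of the second about 5 ng of a control morpholino with 5 mismatches to the same target. Morpholinos are antisense oligomers used to stop a chosen transcript from being spliced or translated. Strain, number of embryos per array and the target site in the transcript are not given in the sources used here, and the targeted gene, which the annotation used here does not name, gave no check of the labels.

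With 1 array per group, none of the differences has a replicate check and no test was possible, so "higher" and "lower" describe these arrays alone. Each array had its own day of hybridization and scanning, and the effects of day and morpholino cannot be told apart. Values are MAS5 signals, and ratios are log2 of the C1q-like morpholino array over the control morpholino array after signals below 33.3 were raised to that floor. Median signals over all probe sets were 34.7 and 32.0. Markers of muscle, red cells, epidermis, notochord and the nervous system were all measured, as a whole embryo would show. In whole embryos, fewer cells of a type and less RNA per cell cannot be told apart.

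Translation begins when initiator tRNA, carried by eIF2 with GTP, joins the small ribosomal subunit together with eIF1A, eIF3 and eIF5. The cap-binding complex of eIF4E, eIF4G and the helicase eIF4A brings this assembly to the mRNA, poly(A)-binding protein links the tail to eIF4G, and eIF5B joins the large subunit. Elongation then uses eEF1A to deliver aminoacyl-tRNA, eEF1B to recharge eEF1A with GTP, eEF2 to translocate and eIF5A to help with slow peptide bonds. Many of these mRNAs are abundant in growing embryos.

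The factor genes as a whole lay evenly about a ratio of 1. Of 65 measured, 32 had ratios above 1 (49.2%), 32 below 1 (49.2%) and 1 had equal signals, against 50.9% above and 48.8% below 1 for all 5958 measured genes. The median log2 ratio was 0.0, against 0.01 for all measured genes, and the middle 50% of factor genes lay between -0.38 and 0.24, against -0.35 and 0.32. At least 2-fold higher was 1 factor gene (1.54%), where 1.68% of all measured genes were. At least 2-fold lower were 4 (6.15%), where 4.10% of all were. At 1.5-fold, 3 factor genes were higher (4.62%, against 10.2% of all) and 10 were lower (15.4%, against 14.5%). Across the 72 genes the arrays ranked signals alike, with a Spearman rho of 0.98 and a Pearson r of 0.97 of log2 signals, over genes that share both arrays.

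**Figure D1:**
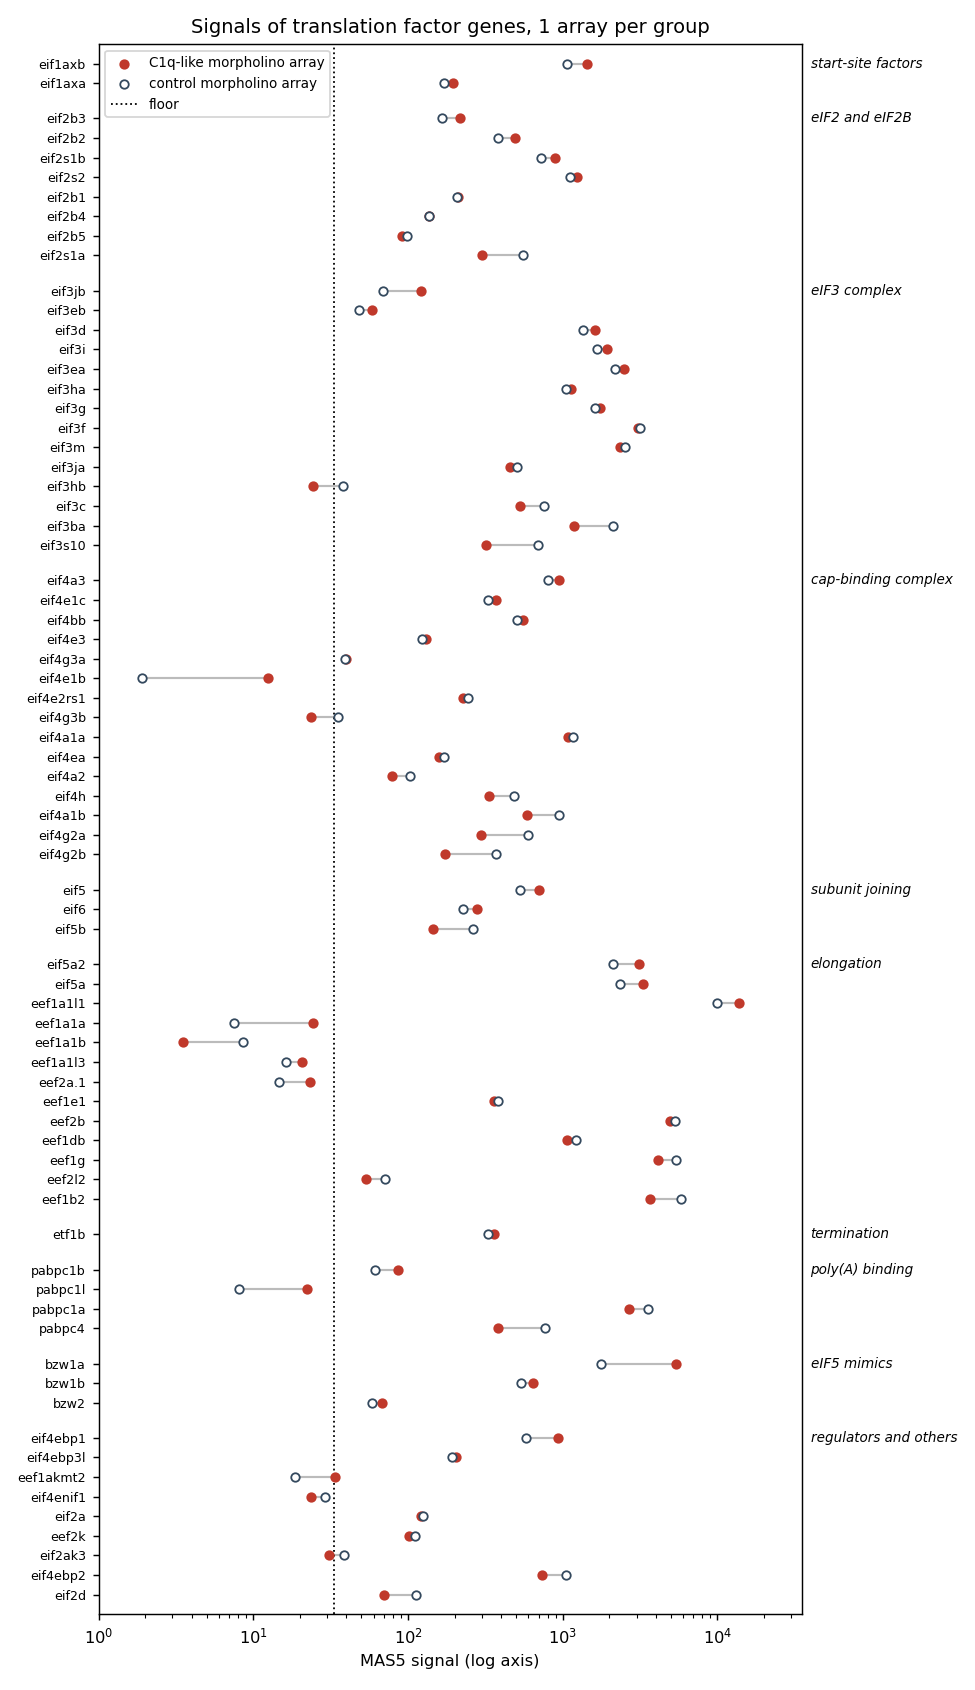
MAS5 signal (log axis) of each of the 72 translation factor genes on the C1q-like morpholino array (filled) and the control morpholino array (open), grouped by role, with the floor of 33.3 dotted. Most pairs nearly coincide. Among genes at or above the floor on both arrays, bzw1a stands out to the right in the C1q-like morpholino array. In the same set eif3s10, eif4g2a, eif4g2b and pabpc4 stand out to the left. Signals are drawn without the floor, so some genes below it, such as eif4e1b (12.5 against 1.9) and eef1a1a (24.3 against 7.5), show wider gaps.

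The genes of eIF1A, which promotes scanning and start codon selection, were both slightly above 1. The gene eif1axb read 1441.5 in C1q-like morpholino embryos and 1066.5 in control embryos, a log2 ratio of 0.43, and eif1axa read 195.5 against 171.9, a log2 ratio of 0.19. Every other measured probe set of these genes was also above 1, at 0.61 for eif1axa and at 0.17 and 0.51 for eif1axb.

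The eIF2 complex and its exchange factor eIF2B had 5 of 8 genes above 1, 2 below and 1 equal, with a median log2 ratio of 0.09; with quantile normalization or lowess centring 7 were above and 1 below. The alpha subunit of eIF2, which stress kinases phosphorylate to restrain initiation, is encoded by a pair of genes that went opposite ways. The gene eif2s1a read 301.2 in C1q-like morpholino embryos and 555 in control embryos, 1.84-fold lower, whereas eif2s1b read 890 against 722.4, a log2 ratio of 0.30. The log2 ratios of the pair differed by 1.18. The beta subunit gene eif2s2 read 1244.1 against 1119.4. The 5 eIF2B genes lay between -0.10 for eif2b5 and 0.40 for eif2b3, which read 218 against 165. The gene eif2b4 read 136.3 on both arrays.

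In the eIF3 complex, the scaffold that holds the small subunit open to mRNA, 7 of 14 genes were above 1 and 7 below, with a median log2 ratio of 0.03. With quantile normalization or lowess centring that median was -0.11, and 10 or 9 genes were below 1, so its sign depends on scaling. At -0.51 or lower under each scaling and floor tried were the genes of subunits a, b and c. The gene eif3s10, the zebrafish name of the eIF3a gene, read 321.4 in C1q-like morpholino embryos and 696.8 in control embryos, 2.17-fold lower. The eIF3b gene eif3ba read 1174.7 against 2119.7, 1.80-fold lower, and eif3c read 526.9 against 752.6, a log2 ratio of -0.51.

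As deposited, the remaining 11 eIF3 genes lay between -0.20 and 0.81, with a median of 0.11. The value of -0.20 is a bound for eif3hb, which was at -0.66 with a floor of 12.2 or none. Of the 11 genes 7 were above 1 as deposited. Among these 7, eif3ea and eif3g turned below 1 with quantile normalization and with lowess centring, and eif3i with the first. Setting a, b and c apart was done after their values were seen, so the contrast is a description. Among the remaining subunits with PCI or MPN domains, eif3f read 3090.2 against 3153.2, eif3m 2349.2 against 2509.7 and eif3ea 2474 against 2182. The log2 ratios of eif3f and eif3m were -0.03 and -0.10 as deposited. Both were -0.36 with quantile normalization, and they were -0.33 and -0.35 with lowess centring. The gene eif3d, whose human protein can bind caps, read 1627.3 against 1361. Its log2 ratio was 0.26 as deposited, 0.09 with quantile normalization and 0.10 with lowess centring. The gene eif3i, whose protein binds next to subunit b, read 1921.8 against 1657, a log2 ratio of 0.21 as deposited, -0.05 with quantile normalization and 0.02 with lowess centring. Highest was eif3jb, for a loosely bound subunit near the mRNA channel, at 121.6 against 69.4, 1.75-fold higher; raising the floor to 93.1 left 0.39 of its log2 ratio of 0.81. Its paralogue eif3ja read 454.8 against 502.8, a log2 ratio of -0.14. The genes eif3hb and eif3eb were dim, and eif3hb had a C1q-like morpholino signal of 24.2, below the floor.

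**Figure D2:**
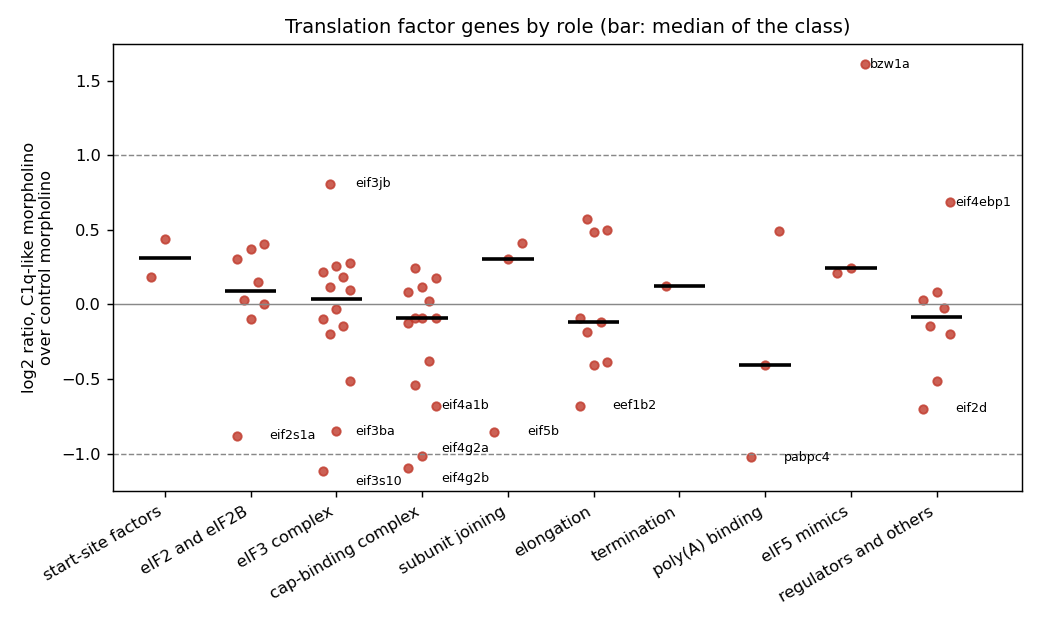
Log2 ratio of each of the 65 measured translation factor genes by role, with dashed lines at 2-fold and a bar at the median of each class. Class medians lie between -0.41 for poly(A) binding (3 genes) and 0.31 for start-site (2 genes) and subunit joining factors (3 genes). The poly(A) binding median depends on processing. Single genes of eIF3, eIF4G and poly(A) binding pass the lower line and bzw1a the upper.

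The cap-binding complex and its helicase partners had 5 of 14 measured genes above 1 and 9 below, with a median log2 ratio of -0.09, and 6 above and 8 below with quantile normalization or lowess centring. Both eif4g2 genes were lower. They encode an eIF4G relative (DAP5 in mammals) that lacks the eIF4E-binding part and serves cap-independent initiation. The gene eif4g2a read 295.1 in C1q-like morpholino embryos and 597.9 in control embryos, 2.03-fold lower, and its second probe set, at 42.5 against 84.7, gave -0.99 beside -1.02. The gene eif4g2b read 172.9 against 369.8, 2.14-fold lower. The ratios of the eif4g2 pair thus differed by 0.08 on the log2 scale. The scaffold genes eif4g3a and eif4g3b were near the floor, at 39.7 against 39.0 and at 23.5 against 35.5, and give little information.

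The helicase gene eif4a1b read 588.8 against 942.6, 1.60-fold lower. Its paralogue eif4a1a gave conflicting readings. The probe set read for the gene had 1085.9 in C1q-like morpholino embryos and 1157.7 in control embryos, a log2 ratio of -0.09, whereas the other read 250.4 against 96.1, a log2 ratio of 1.38. The mean of both was 0.64, so no direction is given for eif4a1a. The gene eif4a2 read 79.3 against 103.4. The gene eif4a3, a related helicase of the exon junction complex, read 949.2 against 801.8, a log2 ratio of 0.24. The helicase stimulator genes eif4bb and eif4h had log2 ratios of 0.11 and -0.54, the last at 332.5 against 482.8.

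The genes of the cap-binding proteins themselves lay close to 1 by the probe sets read for them. By these, the 4 measured eIF4E genes had log2 ratios between -0.12 and 0.18. The gene eif4ea read 157.7 in C1q-like morpholino embryos and 171.8 in control embryos, and its sign turned with scaling, to 0.04 with quantile normalization and 0.0037 with lowess centring. The gene eif4e1c read 371.9 against 329, and its other probe set, at 230.1 against 293.5, gave the opposite sign at -0.35. The gene eif4e3 read 130.5 against 123.1, and a dim second probe set, at 51.5 against 28.3, gave 0.63. The gene eif4e2rs1, a relative of the eIF4E2 cap-binding repressor, read 228.4 against 243.1, a log2 ratio of -0.09 that turned to 0.04 with quantile normalization. The germline form eif4e1b was below the floor on both arrays.

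Among the factors of subunit joining, eif5, whose protein triggers GTP hydrolysis on eIF2, read 704.7 in C1q-like morpholino embryos and 530 in control embryos, a log2 ratio of 0.41. The gene eif5b, for the GTPase that joins the large subunit, read 145.5 against 263.1, 1.81-fold lower. A second eif5b probe set read 140.1 against 194.1 and gave -0.47, the same sign. The gene eif6, which keeps free large subunits from joining, read 279.5 against 226, a log2 ratio of 0.31.

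The 9 measured elongation genes had 3 ratios above and 6 below 1, with a median log2 ratio of -0.12. With the floor at 12.2, where 3 dim genes entered, the median was 0.12. With quantile normalization or lowess centring it was -0.30, with 2 genes above and 7 below 1. The 3 above 1 as deposited were eif5a, eif5a2 and eef1a1l1. The gene eif5a2 read 3115 in C1q-like morpholino embryos and 2099.5 in control embryos, a log2 ratio of 0.57, and its second probe set gave 0.77. The gene eif5a read 3292.7 against 2332.2, a log2 ratio of 0.50, while its dimmer probe set gave -0.05. After quantile normalization the log2 ratios of eif5a2 and eif5a were 0.32 and 0.26. The enzyme genes dhps and dohh, which place the hypusine residue on eIF5A, had log2 ratios of -0.02 and -0.01, and 0.03 and 0.10 with quantile normalization.

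The gene eef1a1l1, the measured eEF1A gene, had signals of 13868.4 in C1q-like morpholino embryos and 9904.8 in control embryos. Its log2 ratio was 0.49 as deposited, -0.12 with quantile normalization and -0.06 with lowess centring, so its direction depends on scaling. The median log2 ratio of all measured genes above the 75th percentile of mean signal was 0.08, and the plot of ratio against signal shows the genes of highest signal above 0. The eEF1A genes eef1a1a, eef1a1b and eef1a1l3 were below the floor on both arrays.

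All 4 genes with eef1b, eef1d, eef1e or eef1g symbols were below 1, with a median log2 ratio of -0.29. The share below 1 among all measured genes was 48.8%, and the difference was not tested. These 4 genes were set apart as a group after their values were seen. A probe set shared by eef1da and cirbpb, outside these comparisons, was above 1, at 0.19. The nucleotide exchange subunit gene eef1b2 read 3645.6 in C1q-like morpholino embryos and 5845.5 in control embryos, 1.60-fold lower. Its log2 ratio of -0.68 was -0.99 with quantile normalization and -1.05 with lowess centring. The structural subunit gene eef1g read 4120 against 5391, a log2 ratio of -0.39, and eef1db, of the second exchange subunit, 1072.5 against 1217, at -0.18. With quantile normalization eef1g was at -0.67 and eef1db at -0.30, and with lowess centring at -0.76 and -0.30. The gene eef1e1, whose product is a part of the multi-tRNA-synthetase complex, read 361.1 against 384.3. Its log2 ratio was -0.09 as deposited and -0.03 with quantile normalization. The ratio of the eEF1A gene and those of these 4 genes lay on opposite sides of 1 as deposited, and on the same side with quantile normalization or lowess centring.

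The translocase gene eef2b read 4928.1 in C1q-like morpholino embryos and 5340 in control embryos. Its log2 ratio was -0.12 as deposited, -0.43 with quantile normalization and -0.51 with lowess centring. The gene eef2a.1 was below the floor. The gene eef2l2 was dim, and its probe sets conflicted, at -0.41 (53.8 against 71.3) and 0.71 (76.6 against 46.7). The release factor gene etf1b, which reads stop codons, had 358 against 328.4, a log2 ratio of 0.12, and 0.24 by its other measured probe set.

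**Figure D3:**
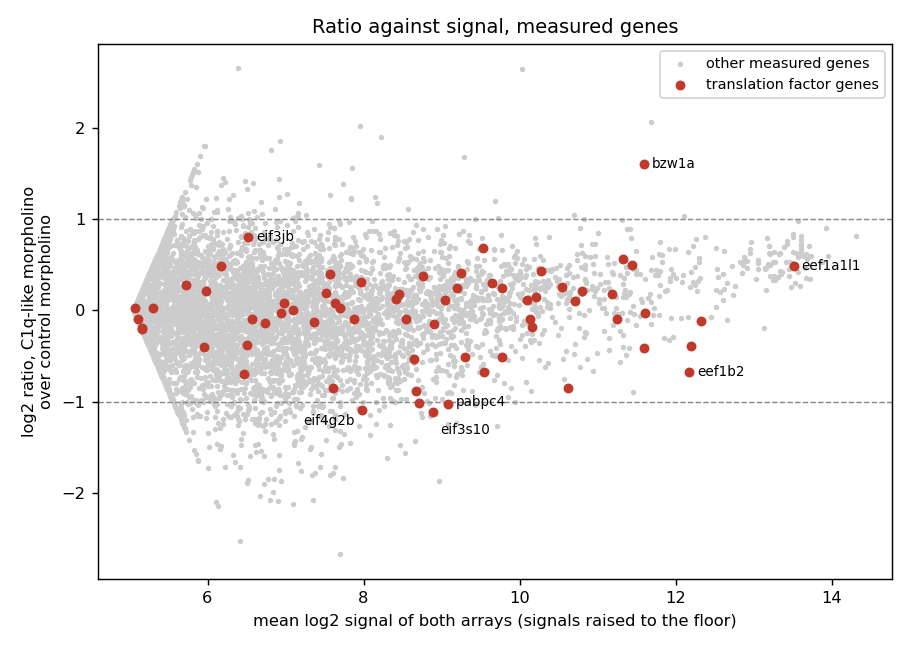
Log2 ratio against mean log2 signal for all 5958 measured genes (grey) and the 65 measured translation factor genes (red), dashed lines at 2-fold. The factor genes spread over the whole signal range; bzw1a is high at high signal, and the group of genes at the right end, with eef1a1l1, lies above 0.

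Among poly(A)-binding proteins, pabpc4 read 380.1 in C1q-like morpholino embryos and 773.1 in control embryos, 2.03-fold lower. The gene pabpc1a read 2695.8 against 3578 by the probe set read for it, which shares probes with other transcripts, a log2 ratio of -0.41. Its other probe sets were lower still, at -1.08 (631.3 against 1332.1) and -0.75 (1445.1 against 2430.2), so all 3 were below 1 with sizes that differed. The first of these, the only one without shared probes, passed 2-fold. The paralogue pabpc1b was dim and above 1, at 85.7 against 60.9, a log2 ratio of 0.49. The oocyte form pabpc1l was below the floor on both arrays. The median log2 ratio of the 3 measured genes was -0.41. It was 0.04 with the floor at 12.2, where pabpc1l entered, and -0.71 with lowess centring. Without shared probe sets it was -1.02, so its sign and size depend on processing.

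The eIF5 mimics, the bzw proteins, resemble the part of eIF5 that binds eIF2 and in human cells compete with eIF5 and tighten start codon choice. All 3 genes were above 1, where 50.9% of all measured genes were. The gene bzw1a read 5386.5 in C1q-like morpholino embryos and 1766.4 in control embryos, 3.05-fold higher, and had the 12th highest ratio of all 5958 measured genes. Its log2 ratio of 1.61 was 1.33 with quantile normalization and 1.31 with lowess centring. It was read by 1 probe set, so no second reading of it exists on the array. The paralogue bzw1b read 638.4 against 538.1, a log2 ratio of 0.25, and bzw2 read 67.9 against 58.7, a log2 ratio of 0.21. The gene bzw2 was dim, with both signals below the higher floor of 93.1. The log2 ratios of bzw1a and bzw1b differed by 1.36.

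The regulators and alternative factors had 3 of 8 measured genes above 1 and 5 below, a split that was 4 and 3 with quantile normalization and 4 and 4 with lowess centring. The eif4ebp genes, which encode proteins that hold eIF4E away from eIF4G until mTOR phosphorylates them, went both ways. The gene eif4ebp1 read 937.3 in C1q-like morpholino embryos and 583.1 in control embryos, 1.61-fold higher, whereas eif4ebp2 read 732.3 against 1045.5, a log2 ratio of -0.51, and eif4ebp3l read 205 against 193.4. The gene eif2d, for a factor that can bring tRNA to the ribosome without eIF2, read 69.6 against 113, 1.62-fold lower; raising the floor to 93.1 moved its log2 ratio of -0.70 to -0.28. The alternative initiation factor gene eif2a read 122 against 124.2, a log2 ratio of -0.03 that turned to 0.15 with quantile normalization. The kinase genes eef2k and eif2ak3 (PERK) had log2 ratios of -0.14 and -0.20, and eif2ak3 had a C1q-like morpholino signal of 30.8, below the floor. The eIF4E transporter gene eif4enif1 was below the floor on both arrays, and eef1akmt2, for a methyltransferase of eEF1A, was at the floor, at 33.9 against 18.6.

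The genes nearest the 2-fold limit show how finely it divided the set. Just outside lay eif2s1a at -0.88, eif5b at -0.85, eif3ba at -0.85 and eif3jb at 0.81. Just inside lay eif4g2a at -1.02, pabpc4 at -1.02, eif4g2b at -1.10 and eif3s10 at -1.12. After quantile normalization eif4g2a and eif4g2b were at -0.95 and -0.99 and eif3ba at -1.02, so membership past the limit changed while direction did not. Among all 5958 measured genes the 4 ranked between 165th (eif3s10) and 227th (eif4g2a) from the lowest.

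Most factor genes had high signals. Of the 65 measured, 42 lay among the 1490 measured genes above the 75th percentile of mean signal, and there 4 of 42 factor genes (9.52%) were at least 2-fold lower, where 2.01% of those 1490 genes were. In the same range 1 factor gene (2.38%) was at least 2-fold higher, where 0.94% of all were, and 21 factor genes were above and 21 below 1. At 1.5-fold lower the shares were 19.0% of factor genes and 10.7% of all genes in that range, and at 1.5-fold higher 4.76% and 10.5%. These shares rest on few genes and were not tested. Across the 65 genes the log2 ratio and the mean log2 signal had a Spearman rho of 0.10.

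Probe sets of the same gene may read different transcripts or share probes, so their spread is not measurement error alone, and it does not show how embryos vary. Of the 72 genes, 58 had 1 probe set and 12 had several measured ones, 26 in all. The probe sets of 8 of these 12 genes lay on 1 side of a ratio of 1, and those of eif4a1a, eef2l2, eif4e1c and eif5a on both. The pooled SD between probe sets of a gene was 0.43 on the log2 scale for these 12 genes and 0.45 for all 789 genes with several measured probe sets. Of the 5 genes past 2-fold, eif4g2a had a second measured probe set, and the probe sets gave -1.02 and -0.99.

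**Figure D4:**
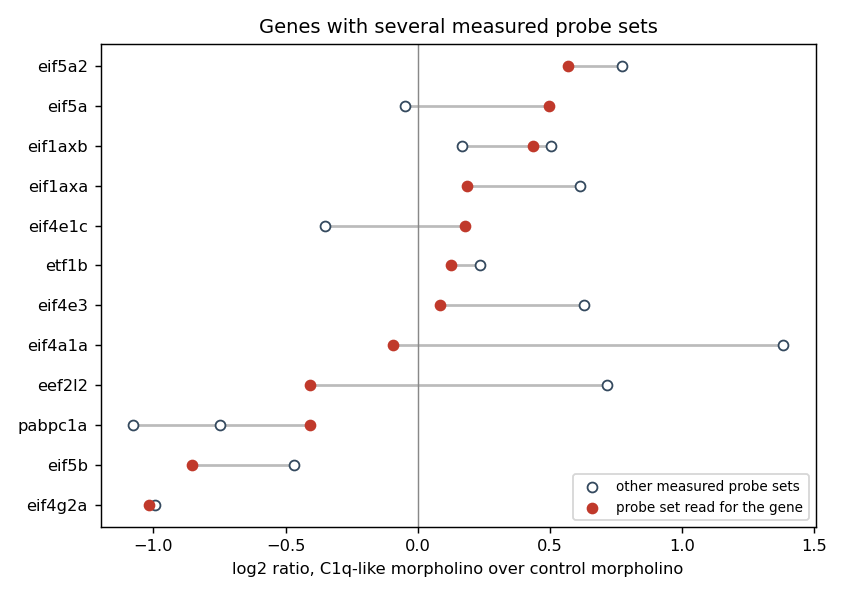
Log2 ratios of the 26 measured probe sets of the 12 translation factor genes that have several, the one read for the gene filled and the others open. The probe sets of eif4g2a coincide near -1, those of pabpc1a and eif5b share a sign, and those of eif4a1a and eef2l2 lie on opposite sides of 0.

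Paralogue pairs from the teleost genome duplication or older ones were read side by side. Of 13 pairs, 6 had ratios on opposite sides of 1, namely those of eif2s1, eif3h, eif3j, eif4g3, pabpc1 and eif4ebp1 with eif4ebp2. Of all measured genes 50.9% were above 1 and 48.8% below, so unrelated genes often lie on opposite sides too. Whether paralogues differ from unrelated genes in this was not tested. The eif3h and eif4g3 pairs each had a signal below the floor, and eif4g3a turned to -0.05 with quantile normalization, the side of eif4g3b. With that scaling eif3ea turned from 0.18 to -0.03, the side opposite to eif3eb, so 6 of 13 pairs were again opposite. With the mean over probe sets 8 of 13 pairs were on opposite sides, since eif4a1a and eef2l2, whose probe sets conflict, were then at 0.64 and 0.15. The bzw1 pair differed by 1.36 as deposited and by 1.07 with quantile normalization, and the pabpc1 pair by 0.90 and 1.30. The eif4g2 pair differed by 0.08 and 0.04.

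Other genes of translation were read from 6 lists, of which 79 genes were found on the array. Of 70 measured, 31 had ratios above 1 (44.3%) and 39 below (55.7%), against 50.9% and 48.8% of all measured genes. Their median log2 ratio was -0.04. Passing 2-fold upward were 2 genes (dph1 and rrp9), where 1.68% of all measured genes did. Passing it downward were 2 (atf4b and ddx3xb), where 4.10% of all did. These differences were not tested. With the floor at 93.1 neither of the upward genes passed, and with quantile normalization, lowess centring or the mean over probe sets ddx3xb did not. With a floor of 12.2 or none 3 passed upward and 4 downward. Aminoacyl-tRNA synthetase genes, listed with aimp1a and aimp2 of the multi-tRNA-synthetase complex, had a median of -0.08 over 19 genes, which was 0.08 after quantile normalization. As deposited kars1 was highest at 0.26 and nars1 lowest at -0.80, and none passed 2-fold in either direction. With quantile normalization iars1 was highest, at 0.38. With the floor at 93.1 nars1 was at -0.21, and eprs1 was lowest at -0.76. Release, recycling and rescue genes had a median of -0.06 over 9 genes, between mcts1, a reinitiation factor gene, at 0.49 and znf598, for a ligase that senses collided ribosomes, at -0.88. With the floor at 93.1 znf598 was at -0.20, and denr was lowest at -0.32. The mitochondrial translation factors had a median of 0.14 over 5 genes, between mrrf at 0.38 and gfm1 at -0.21, both with 1 signal below the floor.

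Of 13 measured genes that signal to translation, 2 were above and 11 below 1, with a median log2 ratio of -0.14. Of all measured genes, 48.8% were below 1, and the difference was not tested. The split was 3 and 9 with quantile normalization, 3 and 10 with the mean over probe sets, and again 2 and 11 with lowess centring. Among the 11, mlst8 was at -0.01, and at 0.21 with the mean over probe sets. The ratio of mknk1, at -0.0043, is a bound that was -1.15 without a floor. Of these 13 genes, the lowest ratio was that of atf4b. The gene atf4b, for a transcription factor translated under phosphorylated eIF2, read 83.3 in C1q-like morpholino embryos and 228 in control embryos, 2.74-fold lower. Its paralogue atf4a read 420.7 against 550.8, a log2 ratio of -0.39, and ppp1r15a, for a subunit of the eIF2 phosphatase, read 60.8 against 96. The ribosomal protein gene rps6 was highest at 0.43 as deposited, and at -0.11 with quantile normalization. Among poly(A) and helicase partners, with a median of -0.11 over 11 genes (3 above and 8 below 1, or 5 and 6 with quantile normalization), the RNA helicase gene ddx3xb read 214.3 against 443.8, 2.07-fold lower, and dph1, for an enzyme that modifies eEF2 with diphthamide, read 132.9 against 63.3, 2.10-fold higher, or 0.51 on the log2 scale with the floor at 93.1.

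Ribosome biogenesis genes had 9 of 13 ratios above 1 and a median log2 ratio of 0.46, against 0.01 for all measured genes. Of all measured genes, 50.9% were above 1, and the difference was not tested. The median of the list was 0.45 with quantile normalization and 0.43 with lowess centring. It was 0.37 with the floor at 93.1, and also with the mean over probe sets. Highest was rrp9, for a component of the U3 small nucleolar particle, at 118.8 in C1q-like morpholino embryos and 58.9 in control embryos, 2.02-fold higher, although with the floor at 93.1 its log2 ratio of 1.01 was 0.35 and nhp2, at 0.70, was highest. The methyltransferase gene fbl read 1028.3 against 651.4, and nop2, for an rRNA methyltransferase, was lowest at -0.56.

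**Figure D5:**
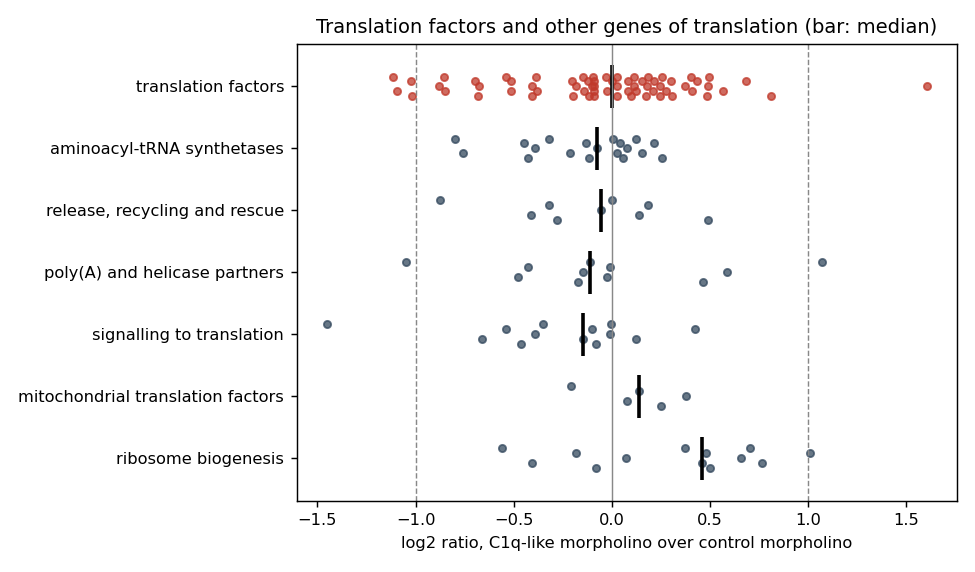
Log2 ratios of the measured translation factor genes (red) and of the measured genes of 6 other lists of translation genes (blue), with a bar at each median and dashed lines at 2-fold. The medians lie between -0.14 and 0.14 except for ribosome biogenesis at 0.46.

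Markers of tissues differed between the arrays too. All 5 neural markers (elavl3, sox2, sox3, sox19a and gfap) were below 1, with a median log2 ratio of -0.78 and summed signals of 1200.7 in C1q-like morpholino embryos and 2153.0 in control embryos. The 4 epidermal markers found had summed signals of 24471.0 against 14000.9, with 3 of 4 above 1 and a median log2 ratio of 0.52 that was 0.26 with quantile normalization. Most of these sums came from krt4, at 17052.4 against 8631.3, and agr2 was below 1, at -0.16. The 5 red cell markers summed to 23752.2 against 16643.4, with 4 of 5 above 1 and a median log2 ratio of 0.30 that was 0.02 with quantile normalization. Most of these sums came from hbae3, at 15610.7 against 9913.6, and alas2 was below 1, at -0.60. The 4 muscle markers summed to 12096.9 against 11748.5, with a median of 0.07 that was -0.17 with quantile normalization and -0.20 with lowess centring. Of 4 epidermal, 5 red cell and 4 muscle genes none lay below the floor on both arrays. The germ cell genes found were dim, with nanos3 at 48.3 against 9.7 and ddx4 below the floor on both. The 4 myeloid markers summed to 787.1 against 702.1, with 2 above and 2 below 1, from mpx at 1.27 to lcp1 at -0.14. The notochord and floor plate markers also had 2 above and 2 below 1, from tbxta at 0.42 to ntn1a at -0.99. The yolk layer gene apobb.1 read 4624.7 against 2747.9. The endothelial genes kdrl and fli1 read 33.3 against 53.3 and 23.1 against 41.7. No marker had a signal of 0. The part of tissue shares in the factor genes' ratios was not tested.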

How the data were processed

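Biotin-labelled cRNA of total RNA was put on Affymetrix zebrafish arrays, per the labels' protocols. The authors deposited 1 signal intensity per probe set and array on a linear scale, made by MAS5 according to the submitters' processing notes; version and scaling target are not given in the sources used here. MAS5 scales each array by 1 factor, so a trend with signal remains. The trimmed means (without the highest and lowest 2%) were 98.8 for the C1q-like morpholino and 99.4 for the control. Groups came from the sample descriptions.

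Signals were raised to a floor of 33.3, their median, and log2 ratios taken; with 1 signal below the floor a ratio is a lower bound in size. Among 15502 probe sets, 10795 were annotated to 1 gene, 135 to several and 4572 to none; 10711 of the first kind, and all 72 factor genes, were found by Entrez number in the RefSeq table of GRCz12tu, which updated symbols. The probe set of highest mean log2 signal stood for each gene. Roles were assigned by symbol, with eif4e2rs1 placed with its eIF4E relatives. Genes named had a ratio past 1.5-fold, were the highest, lowest or strongest of their role, or were paralogues of such genes or had conflicting probe sets; others named were chosen after their values were seen, to complete each complex. The genes and lists were chosen with earlier results of these data known. No test was run, since each group has 1 array, and their number limits the precision. The steps were tested on simulated data. Software was matplotlib 3.10.9, statsmodels 0.14.6, scipy 1.17.1, pandas 2.3.3 and numpy 2.4.6 under Python 3.11.15.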

Additional observations from a re-analysis of the deposited data

Results flagged for a closer look

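Probe sets naming several genes were outside the comparisons, and 2 of them include a factor gene. The one shared by eif4g1a, for the main eIF4G scaffold, and selenof read 749.8 on the C1q-like morpholino array, above the 541.3 of the control, a log2 ratio of 0.47. The one shared by eef1da and cirbpb read 1319 on the C1q-like morpholino array, above the 1156.4 of the control, a log2 ratio of 0.19. Neither can be given to 1 gene, and with 1 array per group neither difference was tested.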

How the results depend on the processing

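Under 11 alternatives (a floor of 12.2 or 93.1, the 25th and 75th percentiles, no floor, centring, quantile normalization, lowess centring with a span of 0.3, the mean over probe sets, leaving out shared probe sets, filters by the mean of both arrays or none, and updated symbols) the median log2 ratio of the factor genes stayed between -0.01 and 0.03. The gene at least 2-fold higher was 1 in each. Those at least 2-fold lower were 4, except 3 after quantile normalization and 5 after lowess centring or without shared probe sets. All 13 genes at least 1.5-fold apart kept their sign under the 8 alternatives that bear on single genes. Most of these could not have turned the signs of the 13. A change of floor never turns a sign, and centring moved each ratio by 0.01. The alternatives on probe sets altered only eif4g2a and eif5b among them. Quantile normalization and lowess centring were thus the main checks left. The 13 genes were picked for large ratios, so these could hardly turn their signs either. Of 65 measured genes 51 kept their sign under all 8, and 14 changed sign or left an equal reading under at least 1. No paired analysis was possible because each group has 1 array. Signals near the floor limit what can be said of eif3hb, eif3eb, eif4g3a, eif4g3b, eif2ak3, eef1akmt2, eef2l2, bzw2 and pabpc1b.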
